A study of Homo sapiens with 6 samples.

Results

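The genes described here are those of the interferon response and of antigen processing for major histocompatibility complex class I, in retinal pigment epithelium cells in which the RNA methyltransferase METTL3 was silenced. They were chosen by name: protein-coding genes with the family prefixes IFI, IFN, IFIT, ISG, OAS, GBP, IRF, STAT and APOL, a fixed set of further interferon-induced genes such as RSAD2, BST2 and USP18, and the antigen processing genes B2M, TAP1, TAP2, TAPBP, PSMB8, PSMB9 and PSMB10 with their transactivator NLRC5. The rule found 69 of the 7758 genes in the deposited table. The GENCODE release 29 annotation holds 114 protein-coding genes under the same rule, and the other 45, among them STAT2, MX1, IFIT1, DDX58, IFNAR1, IFNAR2 and IFNB1, were not analysed here.

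The cells were ARPE-19, an established human retinal pigment epithelium line. The sh-METTL3 group had METTL3 knocked down by a short hairpin RNA that a lentivirus delivered, and the sh-Control group carried a scrambled hairpin. Both groups had received 1 µg/ml lipopolysaccharide, a bacterial cell wall component that Toll-like receptor 4 senses, for 24 h, so the comparison is between stimulated cells only. Each group had 3 libraries of polyadenylated RNA, and the infected cells were selected with puromycin. The sources used here do not state whether the 3 libraries came from separate cultures, so the p-values measure the spread between these libraries, which may be technical.

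Interferons are secreted proteins that bind cell surface receptors and act through JAK kinases on STAT transcription factors. A complex of STAT proteins with IRF9 binds the interferon-stimulated response element (ISRE) in promoters, and STAT dimers bind the gamma-activated site (GAS). The induced genes encode sensors of viral RNA, proteins that block steps of viral replication, and the proteasome subunits and peptide transporter that load class I molecules. In the retinal pigment epithelium, which forms the outer blood-retinal barrier, class I presentation and interferon responses take part in the exchange with immune cells.

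All values are scaled counts, which are read counts per gene divided by a size factor for each library. The table lists genes that the authors had already called different, so shares of calls are shares of a preselected list, and 97.9% of all listed genes passed the test used here in either direction. That test was limma on log2(scaled count + 1) with a threshold of 0.05 on the adjusted p. The listed genes held 10898434 to 17750052 reads in a library, which is not the full depth of a library. METTL3 itself had scaled counts of 1154, 1108 and 1091 in sh-Control and of 966, 1001 and 765 in sh-METTL3. Its log2 fold change was -0.30 (SE 0.0965, adjusted p 0.032 by limma), the lowest sh-METTL3 library was replicate 3, and the call was lost in 7 of 17 alternative settings. Of 12 retinal pigment epithelium markers 7 were listed, and RPE65, RLBP1, TYR, TYRP1 and OTX2 were not. Of those 7, 4 were higher, with RDH5 at 296%, KRT8 at 207%, MITF at 179.8% and KRT18 at 133% of the control mean. The other 3 were lower, with SERPINF1 at 12.1%, PMEL at 28.6% and BEST1 at 30.7%. The summed level of the 7, 18812 to 20074 in sh-Control and 30118 to 33402 in sh-METTL3, was mostly that of the keratins KRT8 and KRT18. Of 7 leukocyte markers 3 were listed, with a summed level of 170.1 to 211 in sh-Control and 157 to 187 in sh-METTL3, and PTPRC, CD68, LYZ and TYROBP were not. They moved in opposite directions, with CD14 at 5.16%, ITGAM at 11.6% and CSF1R at 198% of the control mean. All 3 listed of 5 fibroblast markers were lower, from 11164 to 13066 in sh-Control to 4709.6 to 5361 in sh-METTL3. No endothelial or photoreceptor marker was listed, and the part of these markers in the results was not tested. In bulk RNA, fewer cells of a type and less RNA per cell cannot be told apart.

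Most genes of the interferon and antigen processing group were lower after METTL3 silencing. Of the 69 listed members, 61 were lower and 8 were higher, against 51.3% of all listed genes lower and 46.6% higher. The median log2 fold change was -1.01 over the members and -0.21 over all listed genes. In each of the 61 lower members all 3 sh-METTL3 libraries lay under all 3 sh-Control libraries, which held for 51.7% of all listed genes, and in each of the 8 higher members they lay above, which held for 46.7%. The summed scaled count of the members was 209811, 228787 and 226042 in sh-Control and 95085, 82849 and 130577 in sh-METTL3. In sh-METTL3 the sum was thus 42.9%, 37.4% and 58.9% of the control mean, and replicate 3 stood above the other two. B2M supplied a large part of that sum, and without it the shares were 46.3%, 39.9% and 66.3%. The sum of all other listed genes was 98.5%, 98.9% and 96.0% of the control mean in the same 3 libraries.

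**Figure D1:**
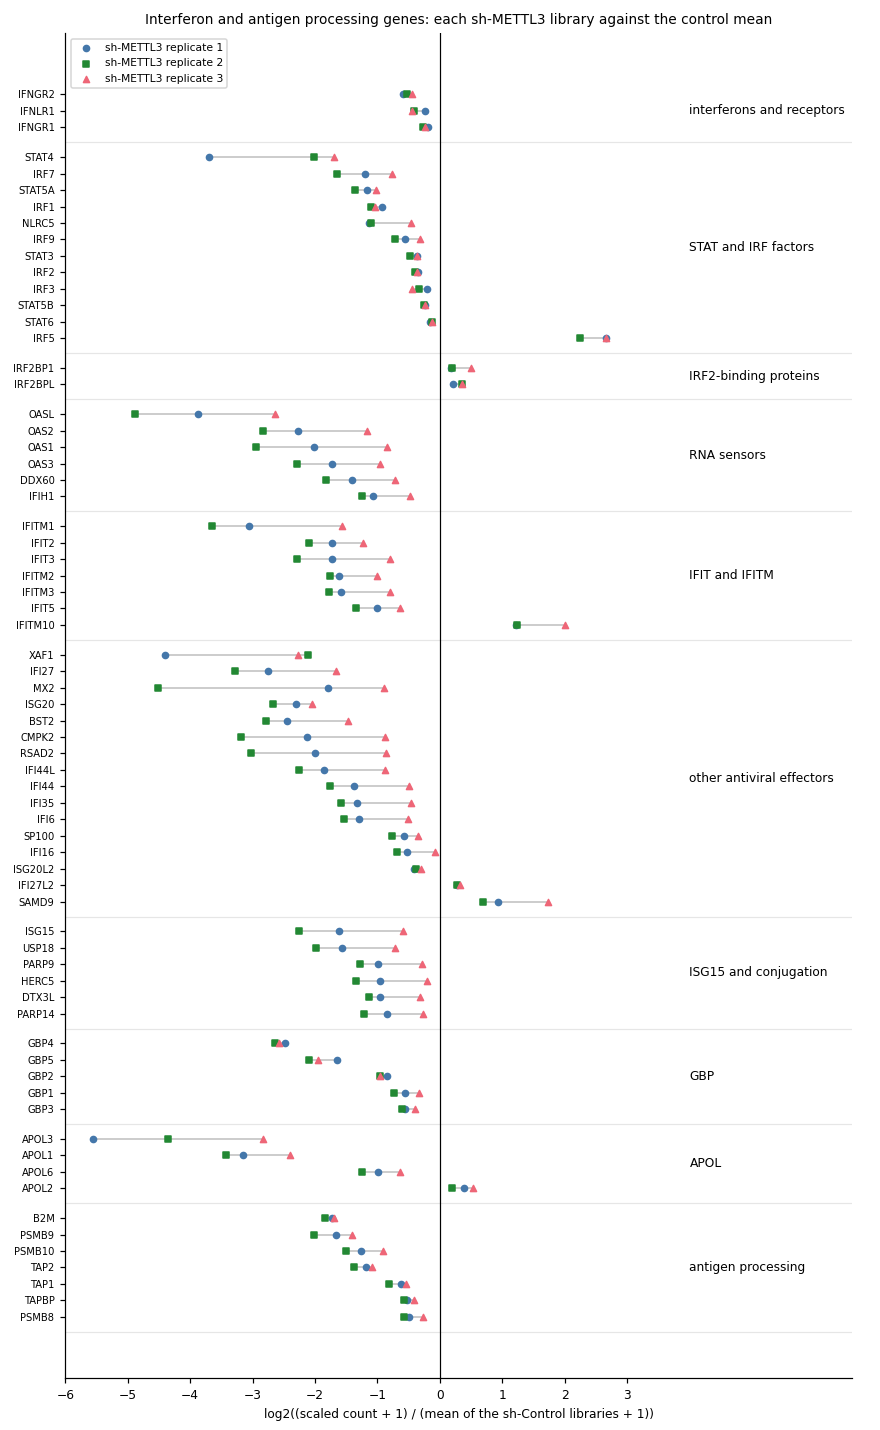
Each row is 1 of 68 of the 69 listed members, grouped by role, and each point is 1 sh-METTL3 library (circle, replicate 1; square, replicate 2; triangle, replicate 3). The horizontal axis is log2 of the scaled count plus 1 over the mean of the 3 sh-Control libraries plus 1. The 61 lower members lie left of 0, and in 56 of the 68 rows replicate 3 is the rightmost point.

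The promoters of these genes were searched for both binding motifs, because the motifs are the classical entry points of the pathway. The ISRE core was taken as TTTC and TTTC separated by any pair of bases, the GAS as TTC and GAA separated by any 3 bases, each on both strands, and matches may overlap one another. The windows ran from 250 bases before to 50 after each transcription start in RefSeq (GRCh38.p14), and 51 of the 69 members had at least 1 window. An ISRE core was found in 29 of the 51 (56.9%), against 4.38% of all 27305 genes of the promoter table and 4.46% of the listed protein-coding genes with a window. A GAS was found in 14 (27.5%), against 9.38% of all genes. Counted per window, 45.1% of 71 member windows and 3.57% of 35116 windows held the ISRE core. A match is a run of letters and not a measured binding site.

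The following are 7 windows with an ISRE core and 1 with a GAS, all on GRCh38, read 5′ to 3′ on the strand of the gene, with the motif in capitals. ISG15, OAS3, RSAD2, DDX60 and IFI27 are shown as members that varied widely between the sh-METTL3 libraries, B2M and IRF1 as members that did not, and SAMD9 as the 1 higher member with an ISRE core. By the GENCODE release 29 basic annotation the windows of DDX60, B2M and SAMD9 lie outside genes. Those of ISG15, RSAD2 and IFI27 lie in an intron of a longer transcript of the same gene, and those of OAS3 and IRF1 in an intron of the non-coding genes AC004551.1 and AC116366.3. The ISG15 motif starts 107 bases before the RefSeq start site (plus strand, chr1:1013380-1013409), and the OAS3 motif 143 bases before it (plus strand, chr12:112938321-112938350). The RSAD2 motif starts 145 bases before (plus strand, chr2:6877622-6877651), the DDX60 motif 88 before (minus strand, chr4:168318821-168318850) and the IFI27 motif 108 before (plus strand, chr14:94110618-94110647). For B2M the distance is 138 bases (plus strand, chr15:44711369-44711398), and for IRF1 it is 124 (minus strand, chr5:132490879-132490907). For SAMD9 the distance is 136 bases (minus strand, chr7:93118096-93118125).
ISG15, ISRE: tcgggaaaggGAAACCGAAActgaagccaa
OAS3, ISRE: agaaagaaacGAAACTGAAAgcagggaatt
RSAD2, ISRE: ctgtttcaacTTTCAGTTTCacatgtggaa
DDX60, ISRE: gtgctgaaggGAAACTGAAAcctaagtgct
IFI27, ISRE: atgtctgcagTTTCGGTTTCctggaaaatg
B2M, ISRE: ctaagaaaagGAAACTGAAAacgggaaagt
SAMD9, ISRE: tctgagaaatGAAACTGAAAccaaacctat
IRF1, GAS: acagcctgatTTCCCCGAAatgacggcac

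The RNA sensors fell together. These genes encode OAS1, OAS2 and OAS3, which make 2′-5′ oligoadenylates in the presence of double-stranded RNA, the related OASL, the helicase sensor IFIH1 (MDA5) and the helicase DDX60. All 6 listed of 8 were lower, and their median log2 fold change was -1.80. OAS3, the most abundant per kilobase of the 6, had scaled counts of 15568, 17305 and 15613 in sh-Control and 4858, 3323 and 8311 in sh-METTL3 (log2 fold change -1.66, SE 0.249, adjusted p 0.000497 by limma). The highest silenced library, replicate 3, was still far under every control library. OAS1 went from 2191, 2418 and 2360.2 to 572, 302 and 1294 (-1.93, adjusted p 0.00297 by limma). OAS2 went from 1202, 1408 and 1310.5 to 271, 182 and 583 (-2.09, adjusted p 0.00058 by limma). OASL fell most of all members with a mean of at least 100, from 502, 610.1 and 579 to 37.3, 18.0 and 89.6, or to 8.57% of the control mean (-3.80, adjusted p 7.75e-05 by limma). The 3 OAS genes are neighbours on chromosome 12 (112906777 to 113011723) and OASL lies farther along it. DDX60 had 3837, 3959.5 and 4229.7 against 1519.8, 1129 and 2453 (-1.31, adjusted p 0.000821 by limma), and IFIH1 fell by 0.93 on the log2 scale. In all 6 the order of the silenced libraries was replicate 2, replicate 1, replicate 3 from low to high.

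The IFIT and IFITM families include proteins that block translation of viral RNA and entry of virus at membranes. Of 10 genes, 7 were listed, 6 of them lower and IFITM10 higher. IFITM1 had 2206, 2489 and 2458 in sh-Control and 286, 189 and 808 in sh-METTL3 (-2.75, SE 0.398, adjusted p 0.000389 by limma). IFITM3, by level the leading gene of the family, had 15721, 17977 and 17179 against 5657, 4985 and 9732 (-1.38, adjusted p 0.000345 by limma). IFITM2 had 3981, 5228 and 4448 against 1483, 1339 and 2254 (-1.46, adjusted p 8.73e-05 by limma). These 3 genes share sequence, with 32.0% of the 50-base words of IFITM1, 34.3% of IFITM2 and 35.2% of IFITM3 also present in other genes, so their separate values are uncertain. IFIT3 went from 2856, 2848 and 2985 to 881, 597 and 1676 (-1.59, adjusted p 0.00131 by limma) and IFIT2 from 803, 777 and 823 to 241, 186 and 342 (-1.69, adjusted p 4.79e-05 by limma). The IFIT control libraries were tightly grouped, whereas the highest silenced library of IFIT3 was 2.81-fold the lowest. IFITM10 rose from 35.1, 38.4 and 37.4 to 87.7, 88.9 and 151 (1.49, adjusted p 0.000683 by limma), and it shares 20.7% of its words with the overlapping gene AC068580.4. IFIT2, IFIT3 and IFIT5 are neighbours on chromosome 10.

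A further 16 listed genes of other families were grouped as antiviral effectors by name, and their function was not tested. Of these, 14 were lower, with a median of -1.43 over the 16. IFI6, a small mitochondrial and endoplasmic reticulum protein, had the highest level per kilobase of all listed members, with 24243, 28315 and 25843 in sh-Control and 10681, 9048 and 18293 in sh-METTL3 (-1.11, SE 0.205, adjusted p 0.0018 by limma). BST2 (tetherin), which holds budding virus at the cell surface, went from 3734, 4781 and 4388 to 790.2, 624 and 1547 (-2.23, adjusted p 9.46e-05 by limma). IFI27 went from 892, 1176 and 1116 to 157, 108 and 335 (-2.55, adjusted p 0.000149 by limma). In all 3 genes no silenced library reached the lowest control library. RSAD2 (viperin) and CMPK2, adjacent genes of antiviral nucleotide metabolism on chromosome 2, moved alike. RSAD2 had 294, 279 and 299 against 71.8, 34.8 and 160.1 (-1.96, adjusted p 0.00401 by limma), and CMPK2 had 241, 318 and 270.1 against 62.5, 29.6 and 150 (-2.05, adjusted p 0.00461 by limma). Both shared the order of the RNA sensors, with replicate 3 at 4.50 and 4.93 times replicate 2. The exonuclease ISG20 fell from 225, 233 and 205 to 43.8, 33.5 and 52.6 (-2.34, adjusted p 7.57e-06 by limma). MX2 and XAF1 were near the floor, MX2 at 5.6, 0 and 11.2 and XAF1 at 0, 3.87 and 3.36 in sh-METTL3 against 18.3 to 27.1 and 16.8 to 25.0 in sh-Control, and the call for MX2 was lost in 6 of the 17 alternatives, among them a pseudocount of 0.1 and the fits without any 1 of the sh-Control libraries. SAMD9, a restriction factor of poxviruses, was higher, at 47.1, 43.2 and 28.0 in sh-Control and 76.5, 64.4 and 133 in sh-METTL3 (1.15, adjusted p 0.0119 by limma). IFI27L2, next to IFI27 on chromosome 14, was 740.3, 825 and 763 in sh-Control and 945, 942 and 967 in sh-METTL3 (0.30, adjusted p 0.00574 by limma). The 2 IFI27 neighbours thus changed in opposite directions.

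ISG15 is a ubiquitin-like protein that is conjugated to other proteins by HERC5 and removed by USP18, and DTX3L, PARP9 and PARP14 attach ubiquitin or ADP-ribose. HERC6, the other gene of this group of 7, was not listed. All 6 listed genes were lower, with a median of -0.84. ISG15 had 7448, 9122 and 7938 in sh-Control and 2665, 1714 and 5439.7 in sh-METTL3 (-1.48, SE 0.315, adjusted p 0.00412 by limma). Its replicate 3 was 3.17-fold its replicate 2, with no overlap between the groups. USP18 went from 306, 339 and 299 to 105, 78.6 and 193 (-1.42, adjusted p 0.00193 by limma), and 23.4% of its words also occur in other genes, mostly its copy USP41. HERC5 went from 402, 376 and 352 to 194, 148 and 326 (-0.83, adjusted p 0.0173 by limma), a call that was lost in several alternatives. PARP9 and DTX3L lie head to head on chromosome 3 and share a promoter motif (122564322 to 122564351). DTX3L had 3573, 3604 and 3919 against 1912, 1673 and 2985 (-0.80, adjusted p 0.00386 by limma) and PARP9 had 3084, 3414 and 3581 against 1691, 1379 and 2759 (-0.85, adjusted p 0.00669 by limma).

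The guanylate-binding proteins, GTPases that interferon gamma induces and that attack intracellular pathogens, also fell, with all 5 listed of 7 lower and a median of -0.91. GBP4 went from 465, 477 and 496 in sh-Control to 84.9, 76.0 and 79.5 in sh-METTL3 (-2.57, SE 0.114, adjusted p 1.85e-07 by limma). GBP5 went from 258, 290.2 and 316 to 91.4, 67.0 and 73.9 (-1.89, adjusted p 9.32e-06 by limma) and GBP2 from 1919, 2107 and 2201 to 1158, 1071 and 1073 (-0.91, adjusted p 4.23e-06 by limma). GBP1 and GBP3 had smaller differences, of -0.54 and -0.51. Unlike ISG15 or the OAS genes, the silenced libraries of this family sat close together, and replicate 3 was between 1.00 and 1.31 times replicate 2. The 5 genes form a cluster on chromosome 1 (89006666 to 89272804), where 65.7% to 67.6% of listed neighbours within 5 Mb were lower. Apolipoprotein L genes were mixed. APOL1, a trypanosome-killing serum protein with an intracellular form, fell from 684, 828 and 684 to 81.2, 67.0 and 138 (-2.99, adjusted p 4.95e-06 by limma) and APOL6 from 1037, 1007 and 1119.8 to 529, 442 and 681 (-0.96, adjusted p 0.000296 by limma). APOL3 was at 57.4, 33.6 and 46.7 in sh-Control and at 0, 1.29 and 5.6 in sh-METTL3, too low for a stable fold. APOL2, beside APOL1 on chromosome 22, was higher, with 849, 929 and 864 against 1146, 1005 and 1269 (0.37, adjusted p 0.00755 by limma).

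**Figure D2:**
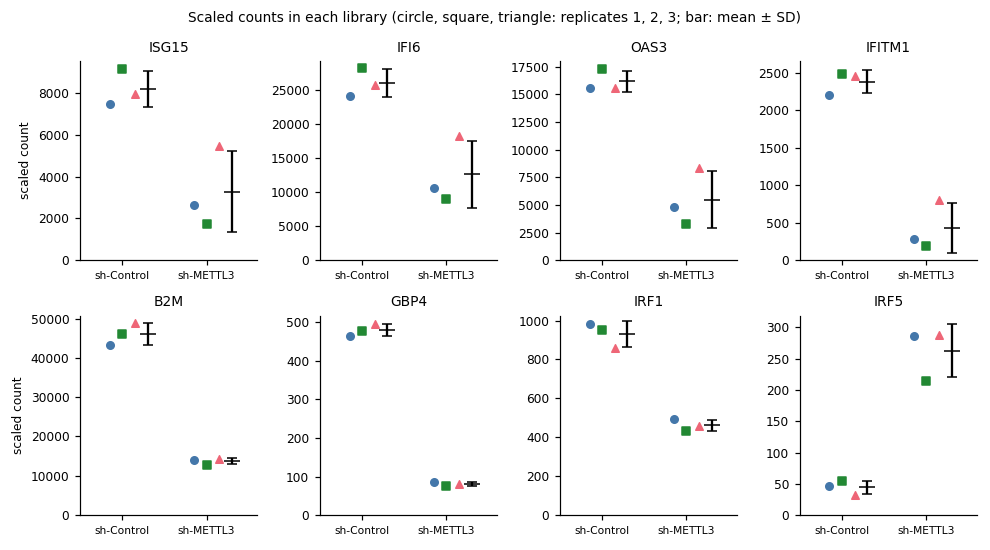
Scaled counts of 8 members in each library, on linear axes from 0. Circles, squares and triangles are replicates 1, 2 and 3, and the bar beside them is the mean ± SD (n = 3). In the upper row (ISG15, IFI6, OAS3, IFITM1) sh-METTL3 replicate 3 lies far above replicate 2, and in the lower row (B2M, GBP4, IRF1, IRF5) the silenced libraries lie closer together.

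Antigen processing genes were lower throughout, with all 7 listed of 8 lower and a median of -1.22. The unlisted gene of this group is IFI30, and NLRC5 is counted with the transcription factors. B2M encodes beta-2 microglobulin, the light chain of every class I molecule. It had 43317, 46057 and 48971 in sh-Control and 13918, 12858 and 14316 in sh-METTL3, 29.7% of the control mean (-1.75, SE 0.0706, adjusted p 1.09e-07 by limma). The immunoproteasome subunit PSMB9 went from 1035, 1140.5 and 1155 to 349, 276 and 419 (-1.69, adjusted p 6.38e-06 by limma) and PSMB10 from 413, 429 and 408 to 172, 146 and 222 (-1.23, adjusted p 0.000104 by limma). The third subunit, PSMB8, was 73.4% of its control mean (-0.45). The peptide transporter consists of TAP1 and TAP2. TAP1 went from 2220, 2353 and 2242 to 1479.7, 1287 and 1559.8 (-0.66, adjusted p 6.73e-05 by limma) and TAP2 from 647, 589 and 568 to 264, 231 and 282 (-1.22, adjusted p 1.09e-05 by limma). TAPBP (tapasin), which bridges the transporter and class I molecules, was 70.6% of its control mean (-0.50). TAP2 shares 31.3% of its words with an overlapping transcript and PSMB10 27.5%, and the counting is not stated to use strand, so reads from such partners cannot be told apart. From a fixed list of 23 further presentation genes 13 were listed, of which 12 were lower and HLA-DMA (0.71) was higher, with a median of -0.77. The class I heavy chains in it had log2 fold changes of -1.08 for HLA-B and -0.60 for HLA-C, and reads of these related genes may be shared.

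B2M differed from the other members in its surroundings. Of the 85 listed genes within 5 Mb of it on chromosome 15 (B2M at 44711487 to 44718877), 84 (98.8%) were lower, and their median was -1.07 on the log2 scale. For no other member was the share over 70.0% (NLRC5), and the lowest was 23.1% (IRF5). The log2 fold change of B2M itself was -1.75. The presentation gene PDIA3 lies in the same stretch and had a log2 fold change of -0.91. The part of the neighbourhood in the level of B2M and PDIA3, including any difference in DNA copy number between the silenced and control cells, was not tested. The IFITM genes and IRF7 at the end of chromosome 11 had the opposite surroundings, with 33.3% of listed neighbours lower.

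**Figure D3:**
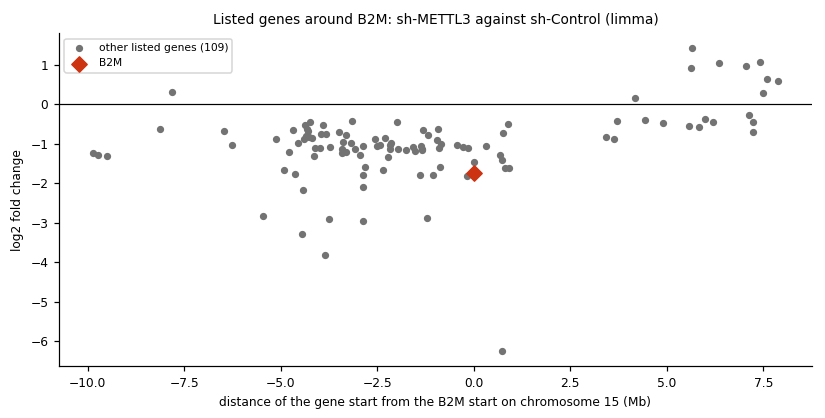
Log2 fold change (sh-METTL3 against sh-Control, limma) of each listed gene on chromosome 15 within 10 Mb of the B2M start, against its distance in Mb. The diamond is B2M. Within 5 Mb, 84 of 85 neighbours lie below 0, and genes above 0 reappear farther away.

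The receptors and transcription factors had smaller median differences than the effectors. Of 26 interferon and receptor genes, 3 receptor chains were listed and all were lower. IFNGR2, a chain of the interferon gamma receptor, had 1284, 1265 and 1202 in sh-Control and 832, 872 and 917 in sh-METTL3 (-0.52, adjusted p 0.000134 by limma). IFNGR1, the other chain, had 1130.4, 953 and 969 against 889, 847 and 859 (-0.23, adjusted p 0.0414 by limma), and this call was lost in 11 of 17 alternatives. IFNLR1, of the interferon lambda receptor, had 270.4, 252 and 254 against 219, 193 and 190.4 (-0.37, adjusted p 0.0269 by limma), also not called in several alternatives. Of 17 STAT, IRF and related factors 13 were listed, 11 lower and 2 higher, with a median of -0.41. IRF1, a factor that interferon gamma induces, went from 984, 953 and 857 to 492, 434 and 456 (-1.01, adjusted p 8.22e-06 by limma), although 22.0% of its words occur in overlapping genes. IRF7, the amplifier of type I interferon production, went from 1721, 1883 and 1659 to 763, 563 and 1029 (-1.20, adjusted p 0.000349 by limma). STAT5A went from 356, 352 and 349.6 to 158, 137 and 174 (-1.18, adjusted p 3.51e-05 by limma). NLRC5, the transactivator of class I genes, was 54.8% of its control mean (-0.90), and IRF9, the DNA-binding partner of STAT proteins, was 70.1% (-0.52), with 43.8% of its words shared with other genes, mostly the overlapping AL136295.5. STAT3, STAT5B, IRF2 and IRF3 had differences between -0.24 and -0.41. STAT6, which acts for interleukin 4, had 5923, 5928 and 5919.7 against 5342, 5467 and 5408 (-0.13, adjusted p 0.0485 by limma), and its call was lost in 14 of 17 alternatives.

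IRF5 had the largest increase of the members. This factor, which acts downstream of Toll-like receptors, rose from 47.1, 53.8 and 32.7 to 287, 214 and 288, a 5.91-fold difference in means (2.55, SE 0.211, adjusted p 9.3e-06 by limma). The repressor partners IRF2BP1 and IRF2BPL, which the prefix rule takes in although they are not interferon-induced, were both slightly higher. IRF2BPL had 1495, 1659 and 1583 against 1830.5, 2034 and 2012 (0.31, adjusted p 0.00345 by limma). IRF2BP1 had 534, 512 and 466 against 573, 576 and 711 (0.29, adjusted p 0.0495 by limma), a call lost in 11 of 17 alternatives. Without the IRF2-binding proteins the median of the remaining 67 was -1.11.

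The sh-METTL3 libraries did not fall equally. Over the 69 members the median log2 ratio to the control mean was -1.13 in replicate 1, -1.34 in replicate 2 and -0.59 in replicate 3, whereas over all listed genes the same medians were -0.16, -0.19 and -0.18. Replicate 3 was the highest silenced library in 56 members (81.2%), against 38.4% of all listed genes, and the full order of replicates 2, 1 and 3 from low to high held in 49 (71.0%), against 18.8%. The median range between the 3 libraries of a group was 0.67 on the log2 scale in sh-METTL3 and 0.17 in sh-Control for the members, against 0.22 and 0.18 for all listed genes. Among genes with a mean of at least 100, replicate 3 was at least 1.5 times replicate 2 in 34 of 63 members (54.0%) and in 112 of all 6035 listed genes (1.86%). A ratio of at least 2 was found in 35 listed genes, of which 20 (57.1%) were members. These ratios were not used by the naming rule, but the same libraries enter the comparison of groups and their spread enters its standard errors. The limit of 1.5 was chosen after the values were seen. METTL3 was lowest in replicate 3, the library in which these genes were least reduced. The part of the METTL3 level in this result was not tested. Without sh-METTL3 replicate 3, 59 members were lower and 7 were higher, with a median of -1.18.

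Split by that ratio, the 61 lower members fell into 36 with a replicate 3 of at least 1.5 times replicate 2 and 25 without. The first held all 6 RNA sensors, all 6 lower IFIT and IFITM genes and all 6 listed genes of the ISG15, ubiquitin and ADP-ribose group. It also held 11 other antiviral effectors, 3 APOL genes, IRF7, NLRC5, PSMB9 and PSMB10. The second held all 5 GBP genes, 9 of the 11 lower STAT and IRF factors, the 3 receptors, B2M, PSMB8, TAP1, TAP2 and TAPBP, and the 3 other antiviral effectors ISG20L2, SP100 and XAF1. An ISRE core was present in 20 of the 25 members of the first with a promoter window (80.0%) and in 8 of 21 of the second (38.1%). A GAS was about as frequent in both, at 28.0% and 28.6%. Over the 29 members with an ISRE core, such as the windows of ISG15, OAS3 and RSAD2 printed above, the median log2 fold change was -1.22 and the median ratio of replicate 3 to replicate 2 was 1.95. Over the 22 with a window and no match they were -0.47 and 1.15. The 8 members of the second with an ISRE core were GBP1, GBP3, GBP4, B2M, PSMB8, TAP1, TAP2 and TAPBP. They were every GBP and antigen processing gene of the second that had a window. The split thus also separated gene families, and the part of the family in these contrasts was not tested. CMPK2 had no match and a ratio of 4.93, whereas GBP4 had a match and a ratio of 1.05. None of the 8 STAT and IRF factors with a window held the ISRE core, whereas 6 of the 7 antigen processing genes held it. These shares are descriptions, with 18 members not matched to a window.

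**Figure D4:**
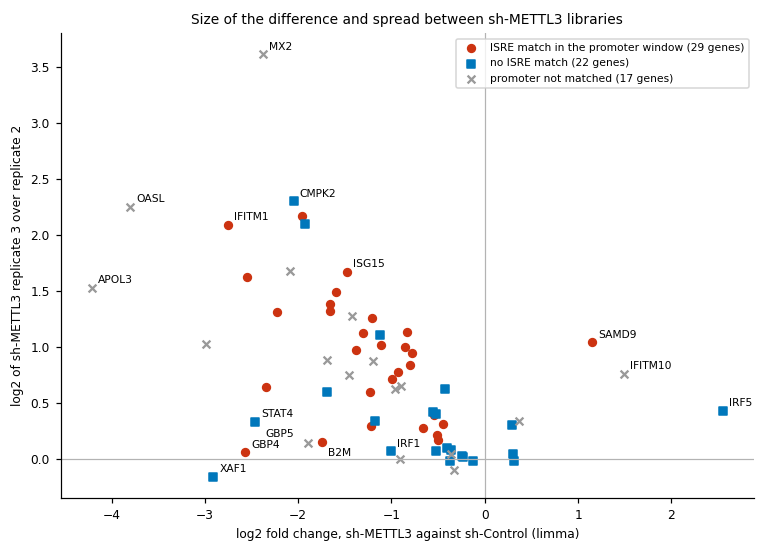
Each point is 1 of 68 members. The horizontal axis is the log2 fold change of sh-METTL3 against sh-Control and the vertical axis the log2 ratio of sh-METTL3 replicate 3 to replicate 2. Circles mark the 29 members with an ISRE core in a promoter window, squares the 22 without and crosses 17 of the 18 with no window. GBP4, B2M and IRF1 lie near a log2 ratio of 0, while ISG15, IFITM1 and CMPK2 lie above 1.5.

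**Figure D5:**
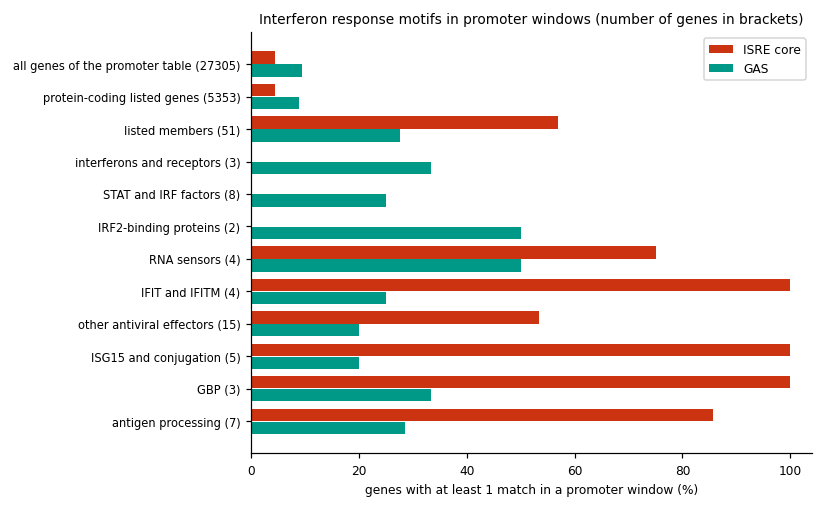
Share of genes (%) with at least 1 ISRE core or GAS match in a promoter window, with the number of genes in brackets. The ISRE core was found in 4.38% of all genes of the promoter table, in 56.9% of listed members, and in none of the receptor, STAT or IRF genes that had a window.

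Genes of the pathway outside the naming rule were taken from 2 further fixed lists. Among 23 genes that signal toward interferon or from its receptor, 10 were listed, 9 lower and MAVS (0.19) higher, with a median of -0.70. TLR4, the lipopolysaccharide receptor, went from 555, 562 and 585 to 125, 126 and 102 (-2.27, adjusted p 4.2e-07 by limma), and was lowest in replicate 3. The DNA sensor CGAS and its partner TMEM173 (STING) had log2 fold changes of -3.81 and -0.99 and were also lowest in replicate 3. The mean of CGAS was 119 in sh-Control and only 7.92 in sh-METTL3, so its order among the silenced libraries rests on few reads. Over the 10 listed genes, replicate 3 was the highest silenced library in 5. Among 27 other interferon-induced genes, 18 were listed and all 18 were lower, with a median of -0.87, and 16 of them were highest in replicate 3 among the silenced libraries. SAMHD1, a nucleotide phosphohydrolase, went from 3880.1, 4192 and 4131 to 1192, 964 and 1841 (-1.66, adjusted p 5.87e-05 by limma). CD274 (PD-L1) fell without that spread, from 1456, 1574 and 1363 to 224, 183 and 217 (-2.81, adjusted p 4.72e-08 by limma). The kinases JAK1, JAK2 and TYK2 and the inhibitors SOCS1 and SOCS3 were not analysed here.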

How the data were processed

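RNA of 6 ARPE-19 libraries had been sequenced as single-end reads. The submitters' processing notes name HISAT2 2.0.5 and hg38. The study's methods name Cufflinks with RefSeq transcripts, for both assembly and the test of differential expression. Gene coordinates in the table equal GENCODE release 29. The counter and its use of strand are not given in the sources used here. They also do not state whether Cufflinks made the values and the test of this table. The deposited values are scaled counts (unit signal: whole read counts divided by a size factor per library), and dividing by what 1 read is worth gave whole counts for 100% of values in each library (tolerance 0.01). The deposited table also holds a log2 fold change, p-value and adjusted p-value per gene from the authors' own comparison. Their values are not reported. No listed gene had an authors' adjusted p over 0.05, so the table is a list of called genes. The ratio of their adjusted to raw p gave 22977 tested genes, of which 33.8% are listed.

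limma 3.58.1 (R 4.3.3) with an intensity trend was fitted to log2(scaled count + 1) of all 7758 listed genes, 3 libraries against 3, with no covariates. The Benjamini-Hochberg adjustment ran over 22977 tests with a threshold of 0.05. Fold changes are on that log2 scale, which understates those of low genes. An exact permutation test of 3 against 3 cannot go below p = 0.1 and was not used. The 17 alternatives included edgeR 4.0.16 and DESeq2 1.42.0 on the recovered counts, and the fits were first tested on simulated data. Same-numbered libraries did not deviate together (correlations 0.004, 0.019 and -0.015), so their numbers do not pair them.

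Levels per kilobase used exon length. Shared sequence is the share of a gene's 50-base words found in transcripts of other genes. The members, role groups, pathway and marker lists and limits were chosen with earlier results of these data known. Values per library are given for METTL3, for up to 5 members a role group with the largest absolute change among those with a mean of at least 100, for the member with the highest level per kilobase and for every higher member. Those of MX2, XAF1, APOL3, TLR4, SAMHD1 and CD274 were added after their values were seen. Results for some genes are not reported here.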

Additional observations from a re-analysis of the deposited data

How the results depend on the processing

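No member changed its direction in any of the 17 alternatives. Requiring a doubling or halving besides the test left 35 lower and 4 higher members, because the fold limit removes smaller differences. Leaving out 1 library at a time gave 54 to 59 lower members and 7 in each case higher, with medians of -1.18 to -0.89. With the replicate number as a block, 60 were lower and 7 higher (median -1.01), and IRF2BP1 and STAT6 were no longer called. With edgeR in place of limma, 60 members were lower with the authors' size factors, 57 with TMM factors and 56 with RLE factors (median -0.89), and the median of all listed genes moved by 0.04 with TMM and 0.12 with RLE. Of 833 results for single named genes under the alternatives, 765 kept their call and 68 lost it. Outside the fold limit, the calls lost in at least 1 alternative, over all 69 members and METTL3, were those of HERC5, IFI16, IFNGR1, IFNLR1, IRF2BP1, METTL3, MX2, PARP14, PARP9, STAT5B and STAT6. The 3 lower receptors became 1 in edgeR with RLE factors and in 4 of the fits without 1 library, and the 6 lower genes of the ISG15 group became 3 without the intensity trend. With a mean of at least 50 required, 65 members remained. Since the table holds called genes only, neither unlisted members nor the share of the whole pathway that changed could be measured, and precision rests on 3 libraries a group.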
